A study of Mus musculus with 8 samples.

Results

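Islets from mice that lack Irs2 on both alleles and carry wild-type Cdk4 (Irs2-/-;Cdk4-WT/WT, Diabetic) were compared with islets from mice that are wild type at both genes (Irs2+/+;Cdk4-WT/WT, Control). The comparison used 6 of the 8 RNA-Seq libraries of the series, Diabetic replicates 1, 2 and 3 and Control replicates 1, 3 and 4. Of the 24123 genes in the matrix, 11672 had at least 1 RPKM, a read count divided by transcript length and library depth, in at least 2 of these 6 libraries and were tested. All of the mice were adult males on regular chow, and whole islets were isolated with collagenase and Ficoll, picked by hand and frozen before polyA RNA was extracted. The Irs2 deletion is present in every tissue, the line had been crossed to C57BL/6N without extensive backcrossing, and littermates of several litters were used. Whether a library holds 1 mouse or a pool is not stated, so that each p-value measures the spread between libraries only.

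IRS2 is the adaptor that links activated insulin and IGF1 receptors to PI3K and AKT, and in β cells this route supports growth, survival and mature function. An islet is mostly β cells, which make insulin and amylin, with α cells (glucagon), δ cells (somatostatin), PP cells (pancreatic polypeptide), vessels and resident immune cells. In RNA of whole islets, fewer cells of a type and less RNA per cell cannot be told apart. The Irs2-/- males were diabetic, and the lack of Irs2 and the diabetic state cannot be told apart in this design either.

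Reads assigned to Irs2 itself were more abundant in the libraries labelled Diabetic. The level was 5.14, 11.0 and 6.74 RPKM in Control 1, 3 and 4, and 36.3, 31.6 and 21.98 RPKM in Diabetic 1, 2 and 3. Every Diabetic library lay above every Control library, and the log2 difference of log2(RPKM + 1) was 1.87 (SE 0.28, limma adjusted p = 0.0190). A gene-level value does not show which part of the transcript the reads cover, so the level of Irs2 does not check the genotype, and Diabetic and Control mean here the libraries labelled as such. Irs2 lies on the minus strand of chromosome 8 (10984681 to 11008458 of GRCm38). The next tested gene downstream on the same strand, 3930402G23Rik, an RNA gene of unassigned function 56.0 kb away, had 0.0996, 0.236 and 0.0211 RPKM in Control and 3.57, 4.14 and 4.67 RPKM in Diabetic. Control libraries held 1 to 10 reads of 3930402G23Rik and Diabetic libraries 148 to 199 (log2 difference 2.20, SE 0.16, limma adjusted p = 0.00668). Rab20, which encodes a small GTPase of endosomes 445.1 kb on the other side, fell by 0.78 (SE 0.14, limma adjusted p = 0.0288), from 4.99 ± 0.341 RPKM (SD, n = 3) to 2.51 ± 0.462. These were the 3 called genes among 64 tested within 10 Mb of Irs2, 4.69% (exact 95% interval 0.977 to 13.1%), against 7.64% of all tested genes, and the share on the whole of chromosome 8 was 8.43%.

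Other genes of the insulin pathway were called in both directions. Igf1r, the IGF1 receptor, had 5.70, 5.97 and 6.18 RPKM in Control and 14.2, 14.04 and 8.82 in Diabetic, a log2 difference of 0.91 (SE 0.18, limma adjusted p = 0.0356). Insr, the insulin receptor, had a mean of 6.16 RPKM in Control and 6.52 in Diabetic (log2 difference 0.07, SE 0.12, limma adjusted p = 0.718). Akt1, the kinase downstream of PI3K, fell by 0.52 (SE 0.09, limma adjusted p = 0.0271), from 40.7 ± 0.345 to 28.1 ± 1.99 RPKM, and Foxo6, a FOXO family transcription factor, by 0.87 (SE 0.20, limma adjusted p = 0.0456). Of 22 tested genes for insulin and IGF1 receptors, IRS proteins and PI3K, 2 were called higher, Irs2 among them, and 1 lower. The shares were 9.09% and 4.55%, against 2.90% and 4.74% of all genes. Of 24 textbook FOXO targets Irs2 alone was called (4.17% higher). Cdk4, wild type in both groups, was 33.9 ± 9.16 RPKM in Control and 21.0 ± 4.28 in Diabetic and was not called (limma adjusted p = 0.120). With median-of-ratios scaling, described below, the calls of Akt1 and Foxo6 were lost (adjusted p = 0.114 and 0.0985). By voom those of Rab20, Akt1 and Foxo6 were lost (0.0701 to 0.124), and with quantile normalization those of Rab20 and Foxo6 (0.0572 to 0.146). Of the 6 called genes of this and the preceding paragraph, 0 remained called without Diabetic 2 (adjusted p 0.0694 to 0.177), 3930402G23Rik alone without Control 1, 3 or 4, 3 without Diabetic 1 and 6 without Diabetic 3.

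Across all genes, 339 were called higher in Diabetic than in Control (2.90% of those tested) and 553 lower (4.74%) at a Benjamini-Hochberg adjusted p under 0.05 in limma. The median log2 difference was 0.86 among the higher and -0.75 among the lower genes, and 134 and 138 genes had a log2 difference of at least 1 in size. All 892 called genes had groups that did not overlap, which was also true of 10.4% of all genes in the upward and 22.9% in the downward direction. Genes with the highest expression were called higher most often, 7.51% in the highest of 4 equal bins of mean RPKM against 1.10% in the lowest, and the shares called lower were 7.06% and 2.23%. The median over all genes was -0.14, and it moved to -0.02 when the libraries were scaled by median-of-ratios, a scaling that sets the typical gene to no change. With that scaling the counts were 570 higher and 240 lower, or 4.88% and 2.06% of the genes tested (6.94% together). Higher genes then made up 70.4% of the calls and 62.5% with quantile normalization, against 339 of the 892 calls as deposited. Of the genes called as deposited, 332 of 339 higher and 234 of 553 lower genes were called in the same direction with median-of-ratios scaling.

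**Figure D1:**
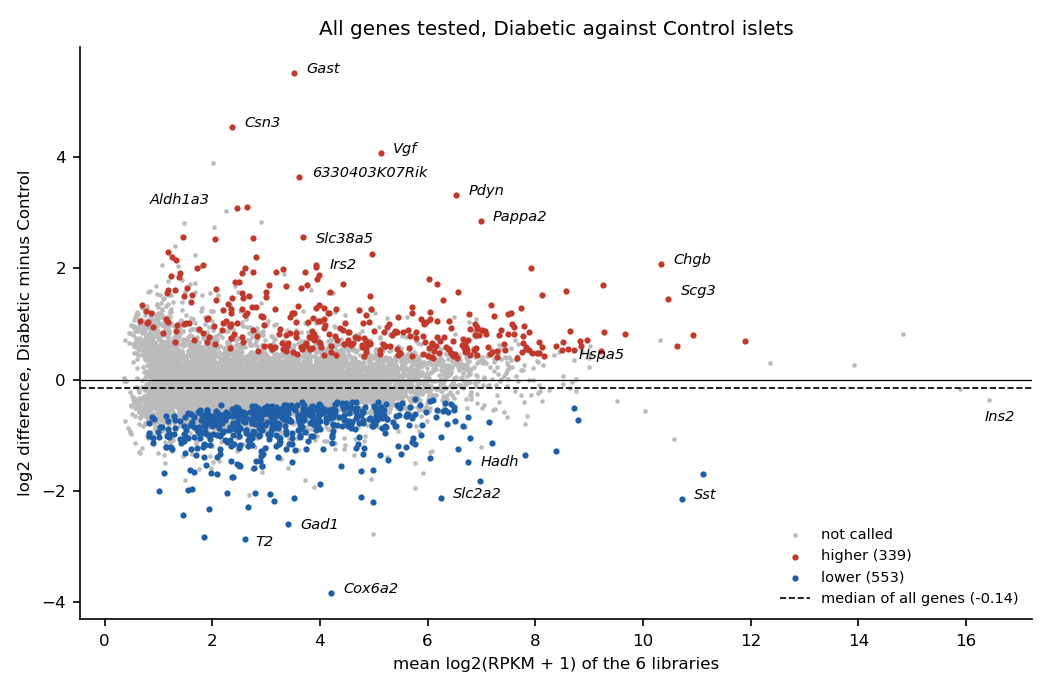
Each point is 1 of the 11672 tested genes, with the mean log2(RPKM + 1) of the 6 libraries on the horizontal axis and the log2 difference, Diabetic minus Control, on the vertical axis. Red points are the 339 genes called higher and blue points the 553 called lower, and the dashed line is the median of all genes at -0.14.

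The calls depended on which libraries were in the fit. A fit with 1 library left out also has fewer libraries, and the part of this was not tested. Without Diabetic 2 the calls fell to 3 higher and 0 lower genes, although 696 and 1283 genes had an unadjusted p under 0.05 in that limma fit. Leaving out Control 1, 3 or 4 left 15 and 14, 7 and 3, and 37 and 43 genes. The counts were 173 and 388 without Diabetic 1, and 833 and 581 without Diabetic 3. The genes called in all 6 of these fits were 6330403K07Rik, Slc38a5 and Chil6, all higher, and another 6 genes were called in 5 of them, 3930402G23Rik, Cartpt and Diras2 (higher) and Sst, Angptl7 and Dnajc24 (lower). Where a call below is named, its adjusted p belongs to the fit of all 6 libraries.

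**Figure D2:**
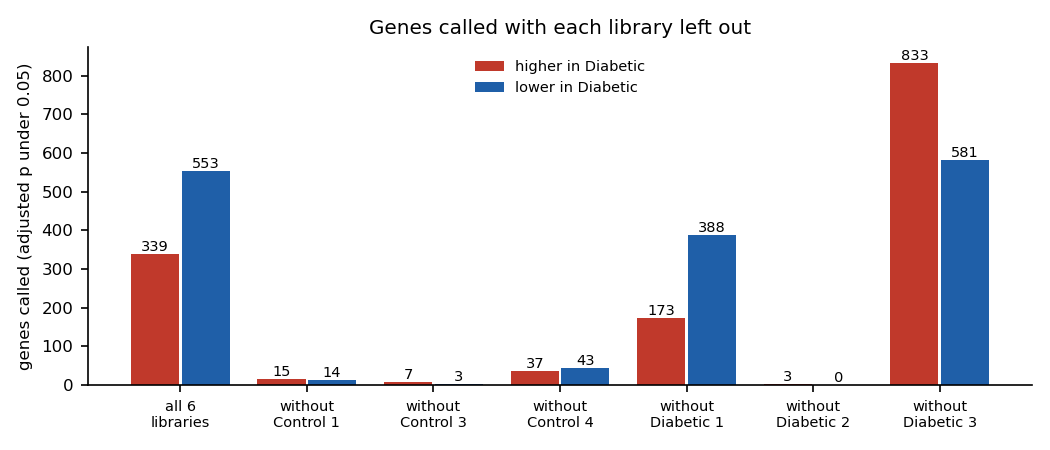
Bars give the number of genes called at an adjusted p under 0.05 (vertical axis) with all 6 libraries and with each library left out. Counts range from 3 higher and 0 lower genes without Diabetic 2 to 833 and 581 without Diabetic 3.

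The 6 libraries held 10289662 to 14315976 reads in genes, recovered from the RPKM steps as the smallest whole numbers that fit. They differed within each group in RNAs that are kept in the nucleus, such as Malat1 and Neat1. Malat1 was 554, 180 and 89.3 RPKM in Control and 248, 110 and 98.0 in Diabetic, and Neat1 20.9, 8.93 and 0.713 against 12.4, 0.685 and 0.679. A mean over 16 such RNAs, of log2 values centred on the 6 libraries, was high in Control 1 (1.27), Control 3 (0.94) and Diabetic 1 (1.10) and low in Control 4, Diabetic 2 and Diabetic 3 (-1.12 to -1.08), and 0 of the 16 were called (limma; also 0 at an unadjusted p under 0.05 and 0 by voom). With this factor of 2 levels in the model 576 genes were called higher and 886 lower (4.93% and 7.59%, 12.5% together), among them 333 of the 339 and 550 of the 553.

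The largest increase was that of Gast, the stomach hormone gastrin. It was at 0.864, 0.170 and 1.22 RPKM in Control and at 159, 120 and 22.5 RPKM in Diabetic, a log2 difference of 5.51 (SE 0.69, limma adjusted p = 0.0160). Csn3, the milk protein κ-casein, went from at most 0.128 RPKM in any Control library to 50.3, 40.7 and 6.23 RPKM (log2 difference 4.53, SE 0.69, limma adjusted p = 0.0193). Diabetic 3 was the lowest Diabetic library for both and still lay well above Control. Vgf, a precursor of granule peptides, rose by 4.07 (SE 0.45, limma adjusted p = 0.0158), from 7.57, 5.85 and 9.59 RPKM to 214, 208 and 65.0. Pdyn, the precursor of dynorphin opioid peptides, rose by 3.31 (SE 0.45, limma adjusted p = 0.0171), from 20.8, 18.9 and 58.0 RPKM to 345, 374 and 191. For Vgf and Pdyn too, Diabetic 3 held the lowest of the Diabetic values.

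Pappa2, a secreted protease that cleaves IGF-binding proteins, also rose. Its level was 34.9, 46.4 and 60.4 RPKM in Control and 348, 443 and 253 RPKM in Diabetic (log2 difference 2.85, SE 0.26, limma adjusted p = 0.00985). C1qtnf1, a secreted protein of the C1q/TNF family, rose by 3.10 (SE 0.36, limma adjusted p = 0.0158), and Nog, the BMP antagonist noggin, went from 0 to 1 reads per Control library to 165, 108 and 28 reads in Diabetic (limma adjusted p = 0.0351). Cartpt, the precursor of the CART peptides, was at 0.156, 0.123 and 0.330 RPKM in Control and at 4.93, 3.71 and 4.33 RPKM in Diabetic, where the replicates lay close together (log2 difference 2.14, SE 0.16, limma adjusted p = 0.00668). 6330403K07Rik, a gene of unassigned function on chromosome 11, showed the same tight separation, with 2.04, 3.25 and 2.26 RPKM in Control and 47.7, 52.0 and 30.2 RPKM in Diabetic. Its log2 difference was 3.63 (SE 0.23, limma adjusted p = 0.00356). Chil6, a secreted chitinase-like protein, rose from 0.732 ± 0.156 to 9.07 ± 1.44 RPKM (log2 difference 2.53, SE 0.15, limma adjusted p = 0.00356).

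Among intracellular and membrane proteins, Slc38a5, a transporter of glutamine and other neutral amino acids, had the smallest adjusted p of all genes (0.00268, limma). It stood at 4.37, 4.27 and 4.26 RPKM in Control and at 32.5, 34.3 and 25.4 RPKM in Diabetic (log2 difference 2.57, SE 0.13). Aldh1a3, which makes retinoic acid and marks failing β cells, was 1.71, 0.407 and 0.791 RPKM in Control and 19.0, 22.7 and 7.78 RPKM in Diabetic (log2 difference 3.09, SE 0.41, limma adjusted p = 0.0162). Cidea, a protein of lipid droplets, rose by 2.56, Ttyh1, a membrane protein of the tweety family, by 2.55, and Tent5a, a poly(A) polymerase, by 2.26. Increases of 2.21, 2.06 and 2.05 were measured for the transcriptional coactivator Zcchc12, the small GTPase Diras2 and Gucy2c, the receptor for the gut peptides guanylin and uroguanylin. The limma adjusted p of these 6 genes was 0.00865 to 0.0311. Of the 19 genes in this and the 2 preceding paragraphs together with Chgb, 19 remained called without Diabetic 3, 17 without Diabetic 1, 11 without Control 4, 7 without Control 1, 5 without Control 3 and 3 without Diabetic 2, with a highest adjusted p of 0.167. By voom on recovered reads the calls of Gast, Csn3 and Nog were lost (adjusted p 0.0558 to 0.103).

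The largest decrease was that of Cox6a2, a subunit of cytochrome oxidase found in muscle and β cells. It was at 58.5, 56.2 and 99.2 RPKM in Control and at 0.852, 5.19 and 9.17 RPKM in Diabetic, with no overlap (log2 difference -3.84, SE 0.59, limma adjusted p = 0.0202). 4931431B13Rik, an RNA gene that ends 2.11 kb from Cox6a2 on the same strand of chromosome 7, fell with it by 2.82 (SE 0.31, limma adjusted p = 0.0158), from 7.10, 6.16 and 14.03 RPKM to 0.0504, 0.517 and 0.542. T2, a gene on chromosome 17, fell by 2.87 (SE 0.31, limma adjusted p = 0.0158), from 15.1, 14.96 and 16.2 RPKM to 0.695, 0.735 and 2.82. Gad1, the enzyme that makes GABA from glutamate, was 23.5, 32.9 and 20.7 RPKM in Control and 1.60, 3.19 and 6.33 in Diabetic (log2 difference -2.60, SE 0.37, limma adjusted p = 0.0179). As among the increases, Diabetic 3 was the Diabetic library nearest to Control for Cox6a2, T2 and Gad1.

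Other large decreases were in genes of several kinds. Kcnf1, a modifier subunit of voltage-gated potassium channels, fell by 2.43 and Kcnj12, an inward rectifier potassium channel, by 1.98 (limma adjusted p = 0.0290 and 0.0158). The cation channel Trpm5, which adds to glucose-stimulated insulin secretion, went from 9.98, 21.4 and 26.8 RPKM to 1.73, 2.59 and 6.40 (log2 difference -2.19, SE 0.45, limma adjusted p = 0.0381). The calcium-binding proteins Cib3 and Cabp7 fell by 2.32 and 2.12, the palmitoyltransferase Zdhhc22 by 2.30, the actin regulator Carmil3 by 2.12, and Baiap3, a protein of dense-core granule traffic, by 1.88. The decreases of the metallothionein Mt1, the imprinted membrane protein Nnat and the sulfotransferase Sult1c2 were 2.20, 2.05 and 1.97 (limma adjusted p 0.0158 to 0.0457). Angptl7, a secreted angiopoietin-like protein, was 6.26, 5.49 and 6.51 RPKM in Control and 1.01, 1.25 and 1.41 in Diabetic (log2 difference -1.67, SE 0.13, limma adjusted p = 0.00865). Dnajc24, a cochaperone of diphthamide synthesis on the elongation factor EF2, went from 24.7 ± 2.23 to 9.78 ± 0.714 RPKM (log2 difference -1.25, SE 0.11, limma adjusted p = 0.00977).

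Several of the lowest genes were RNA genes. Plut, a long non-coding RNA, was 15.5, 11.1 and 13.002 RPKM in Control and 2.76, 1.62 and 3.05 RPKM in Diabetic (log2 difference -2.04, SE 0.20, limma adjusted p = 0.0130). Plut lies on the minus strand of chromosome 5 and overlaps Pdx1 on the plus strand by 1.56 kb. The counting is not stated to use strand, so reads of that stretch cannot be assigned to one of them. Gm4791, a predicted gene, fell by 2.04 (SE 0.37, limma adjusted p = 0.0290). Mir5119, on 3, 4 and 1 reads in Control and 0 in every Diabetic library, was also called (limma adjusted p = 0.0293), but a library with 0 reads allows up to 3. Of 79 tested long intergenic RNA genes 12 were called lower (15.2%) and 2 higher, and of 77 antisense RNA genes 9 were lower (11.7%) and 2 higher, against 4.74% lower among all genes. The median log2 difference of the long intergenic RNAs was -0.41. These counts are as deposited, and lower calls over all genes fell from 553 to 240 with median-of-ratios scaling. RNAs kept in the nucleus were high in Control 1, Control 3 and Diabetic 1 and low in the other libraries, as given above. The part of either in these counts was not tested. Of the 20 genes named in this and the 2 preceding paragraphs, 0 remained called without Diabetic 2 (adjusted p 0.0694 to 0.182), 2 without Control 3, 4 without Control 1, 11 without Control 4, 15 without Diabetic 1 and 19 without Diabetic 3. Median-of-ratios scaling ended the calls of Trpm5 (adjusted p = 0.0527) and Nnat (0.0596), and voom those of Kcnf1, Mt1, Trpm5, Nnat, Gm4791 and Mir5119 (0.0505 to 0.143).

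**Figure D3:**
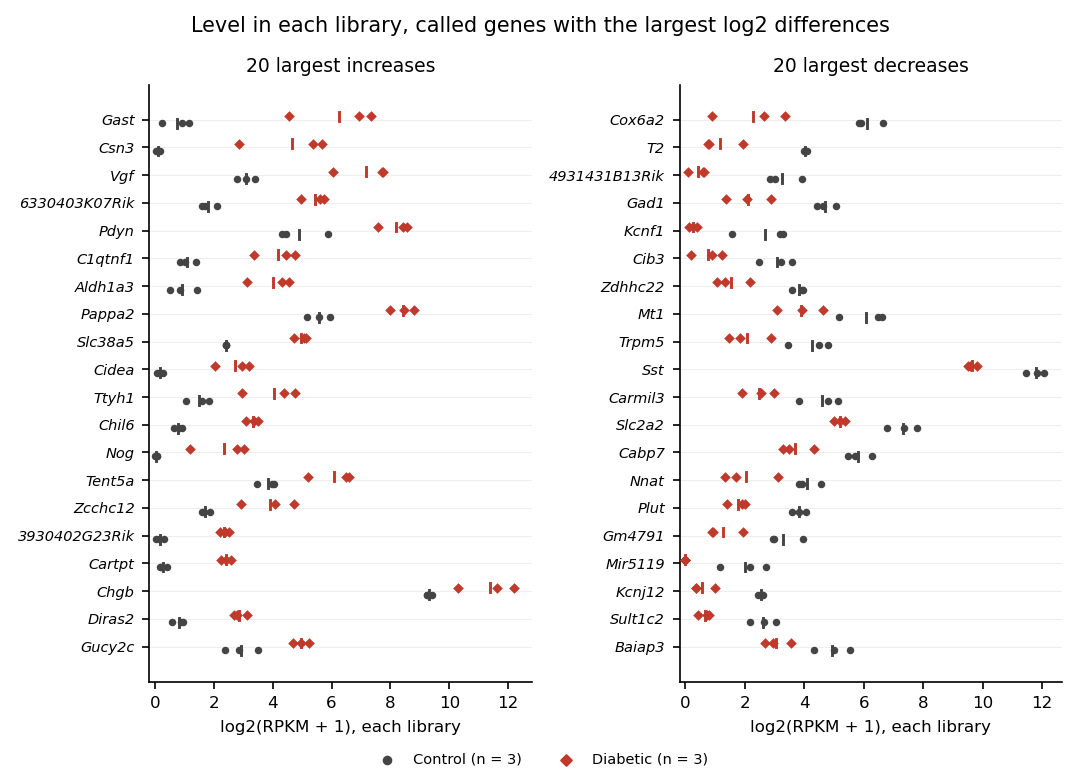
Points give log2(RPKM + 1) (horizontal axis) in each of the 3 Control (grey circles) and 3 Diabetic (red diamonds) libraries for the 20 called genes with the largest increases and the 20 with the largest decreases, and short bars give group means. The groups do not overlap in any of the 40 genes, and Diabetic values spread more than Control values for Gast, Csn3 and Vgf.

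Genes of dense-core granule content rose together. Granins and prohormone convertases fill the granules in which β cells and other endocrine cells store and process hormones. Of 17 tested genes in this list, 12 were called higher and 0 lower, against 2.90% and 4.74% of all genes, and the median log2 difference was 0.88 against -0.14. The list mean, centred per gene, was -0.66, -0.59 and -0.41 in Control and 0.68, 0.68 and 0.30 in Diabetic. Chgb (chromogranin B) was 607, 605 and 684 RPKM in Control and 4674, 3177 and 1271 RPKM in Diabetic (log2 difference 2.08, SE 0.43, limma adjusted p = 0.0381). The share of all reads in genes taken by Chgb was 0.172 to 0.198% in Control and 0.362 to 1.32% in Diabetic. Scg3 (secretogranin III) went from 863 ± 103 to 2363 ± 398 RPKM (log2 difference 1.44, SE 0.16, limma adjusted p = 0.0158), and Scg2 from 3017 ± 188 to 4864 ± 388 (0.69, SE 0.12, adjusted p = 0.0278).

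The processing enzymes moved in the same direction with smaller differences. Pcsk1, which cuts proinsulin, was 126, 134 and 160 RPKM in Control and 239, 300 and 269 RPKM in Diabetic (log2 difference 0.94, SE 0.13, limma adjusted p = 0.0176). The convertase Pcsk2 rose by 0.82, carboxypeptidase E (Cpe) by 0.81, and Pam, which amidates peptide ends, by 1.18 (limma adjusted p 0.0179 to 0.0320). Ptprn, a granule membrane protein and autoantigen of type 1 diabetes, went from 164 ± 20.5 to 491 ± 158 RPKM, and Nucb2, the nesfatin precursor, from 122 ± 30.1 to 489 ± 105. The related Nucb1 rose by 0.88 (limma adjusted p of Ptprn, Nucb2 and Nucb1 0.0158 to 0.0226). The members that were not called included Chga (chromogranin A), at 4745 ± 609 against 5834 ± 474 RPKM (log2 difference 0.30, adjusted p = 0.220), and Resp18, at 833 ± 52.2 against 639 ± 46.4 (log2 difference -0.38, adjusted p = 0.0722). Without Control 1, without Control 3 or without Diabetic 2 the list held 1, 1 and 0 called genes, without Control 4 it held 5, and its median stayed between 0.80 and 0.97 in the 6 fits. Pcsk2 was not called with median-of-ratios scaling (adjusted p = 0.0509).

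The cAMP response element, the 8-letter sequence TGACGTCA that CREB family factors bind, was searched, after the calls were known, on both strands (it reads the same on each) in the 250 bases before the RefSeq start of each gene (GRCm38.p6). The motif was found in 4 of the 10 called granule genes with a promoter in the table, in 4 of the 15 tested ones (26.7%), in 1.77% of 27025 promoters and in 3.22% of those of tested genes. It was found in 12 of the 261 promoters of all genes called higher and in 10 of the 442 of genes called lower. The windows of the 4 genes are shown to place the motif, with that of Sst, which has it too but fell, below them. Capitals mark the motif.
Chgb, chr2:132781550-132781597, plus strand: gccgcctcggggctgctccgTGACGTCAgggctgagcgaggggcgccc
Scg2, chr1:79440067-79440114, minus strand: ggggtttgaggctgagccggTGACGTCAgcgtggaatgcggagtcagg
Pcsk1, chr13:75089759-75089806, plus strand: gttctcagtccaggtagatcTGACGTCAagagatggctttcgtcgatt
Cartpt, chr13:99900768-99900815, minus strand: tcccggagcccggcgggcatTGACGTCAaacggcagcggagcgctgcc
Sst, chr16:23890865-23890912, minus strand: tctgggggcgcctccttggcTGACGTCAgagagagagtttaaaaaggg
The motif starts 72, 68, 78, 112 and 48 bases before the gene start. A match is a description of the sequence and says nothing of which factor was bound in these islets.

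Of 29 genes of the machinery that releases granules 3 were called higher and 2 lower (10.3% and 6.90%, against 2.90% and 4.74% of all genes), with a median of -0.16. The counts were 5 and 1 with median-of-ratios scaling and 6 and 1 by voom. The synaptotagmins Syt5 and Syt4 rose by 1.24 and 0.78 and the granule GTPase Rab3d by 0.76, while Rph3al, a Rab effector, fell by 0.70, and Baiap3 fell as given above (limma adjusted p of these 4 genes 0.0252 to 0.0386). None of these 4 remained called without any 1 of Control 1, 3 and 4 or Diabetic 1 and 2 (adjusted p 0.0503 to 0.168), and with median-of-ratios scaling the call of Rph3al was lost (0.0649).

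Genes of the early secretory pathway, which fold new proteins in the endoplasmic reticulum (ER) and carry them to the Golgi, were higher as well. Of 33 ER chaperone and unfolded protein response genes 16 were called higher and 0 lower (median 0.64), with Hspa5, the main ER chaperone BiP, at 389, 429 and 349 RPKM in Control and 592, 590 and 723 in Diabetic (log2 difference 0.70, SE 0.13, limma adjusted p = 0.0290). Creld2, a secreted ER stress protein, rose by 1.58 (SE 0.18, limma adjusted p = 0.0158). Of 46 COPII, COPI and Golgi transport genes 8 were called higher and 0 lower, 41 lay above the median of all genes, and the list median was 0.27. Kdelr3, which returns escaped ER proteins, had the largest increase of this list, from 7.77, 5.32 and 5.51 RPKM to 26.3, 20.7 and 17.5 (log2 difference 1.64, SE 0.19, limma adjusted p = 0.0158). The cargo receptors Tmed3, Tmed10, Lman1 and Surf4 rose by 1.13, 0.72, 0.91 and 0.39 (limma adjusted p 0.0179 to 0.0443). With median-of-ratios scaling the transport list held 16 and the ER list 20 higher genes. With quantile normalization they held 9 and 13, and with all 8 libraries in the fit 2 and 13. With replicate number as a block in the model they held 3 and 10. Quantile normalization ended the calls of Surf4 and Hspa5 (limma adjusted p 0.252 to 0.714), and with the replicate block 3 of the 7 genes named here remained called. Without Diabetic 2 or without Control 3 both lists held 0 called genes, without Control 1 they held 1 and 0, and without Control 4 they held 1 and 3. Without Diabetic 1 the transport list held 3. The median of the transport list was 0.22 to 0.31 over the 6 fits and that of the ER list 0.62 to 0.69.

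The ER stress element, CCAAT and CCACG with 9 bases between them, through which ATF6 acts on chaperone genes, was searched on both strands in the same way. It was found in 6 of the 13 called ER genes with a promoter in the table and in 0.130% of all 27025 promoters. Windows of 3 of them, on which the position of the element can be read, follow with its fixed letters in capitals.
Hspa5, chr2:34772015-34772053, plus strand: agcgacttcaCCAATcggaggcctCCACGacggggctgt
Dnajc3, chr14:118937817-118937855, plus strand: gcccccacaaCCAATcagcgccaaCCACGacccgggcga
Creld2, chr15:88819510-88819548, plus strand: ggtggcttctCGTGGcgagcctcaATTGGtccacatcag
In Creld2 the element lies on the opposite strand and reads reversed. These genes were taken from those called higher. Of all tested genes, 15 had the element in their promoter window, of which 6 were called higher and 0 lower.

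The protein part of cytosolic ribosomes was the largest list to move. Of 80 tested genes 35 were called higher and 0 lower, and 79 lay above the median of all genes. The log2 differences of the called genes were small, 0.40 to 0.88, and the list median was 0.43. Rplp0, the P0 stalk protein, was 306, 274 and 308 RPKM in Control and 571, 621 and 451 RPKM in Diabetic (log2 difference 0.88, SE 0.14, limma adjusted p = 0.0206). Rpl4, of the large subunit, went from 376 ± 26.9 to 572 ± 51.0 RPKM (log2 difference 0.60, SE 0.11, adjusted p = 0.0292). Many ribosomal protein genes have processed pseudogenes with near-identical sequence, and how the counting treated reads that map to both is not stated. The list mean in each library was -0.16, -0.27 and -0.19 in Control and 0.32, 0.22 and 0.08 in Diabetic, with Diabetic 3 nearest to Control.

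Other parts of the translation machinery changed less. Of 60 initiation and elongation factors 3 were called higher and 1 lower (5.0% and 1.67%, against 2.90% and 4.74% of all genes). The 3 were subunits of the elongation factor EF1, Eef1a1, Eef1b2 and Eef1g, with log2 differences of 0.60, 0.69 and 0.59 (limma adjusted p 0.0278 to 0.0449), and Eif1b, an initiation factor, fell by 0.55 (adjusted p = 0.0203). Of 76 mitochondrial ribosomal proteins 0 were higher and 1 lower (2 and 8 at an unadjusted p under 0.05, and 0 by voom), and of 92 splicing factors 0 were higher and 1 lower (3 and 11, and 0 and 1 by voom). The cytosolic ribosomal count depended on the fit. It was 51 with median-of-ratios scaling, 12 with quantile normalization, 6 with all 8 libraries in the fit, 3 without Diabetic 1, 48 without Diabetic 3 and 0 without any 1 of the other libraries. Its median stayed between 0.37 and 0.49 in the 6 fits with a library left out. Of the 6 genes named here and in the preceding paragraph 0 remained called without Control 1, 3 or 4 or without Diabetic 2 (adjusted p 0.0550 to 0.193), and Eef1a1 and Eif1b were not called with median-of-ratios scaling (0.0564 and 0.0950).

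**Figure D4:**
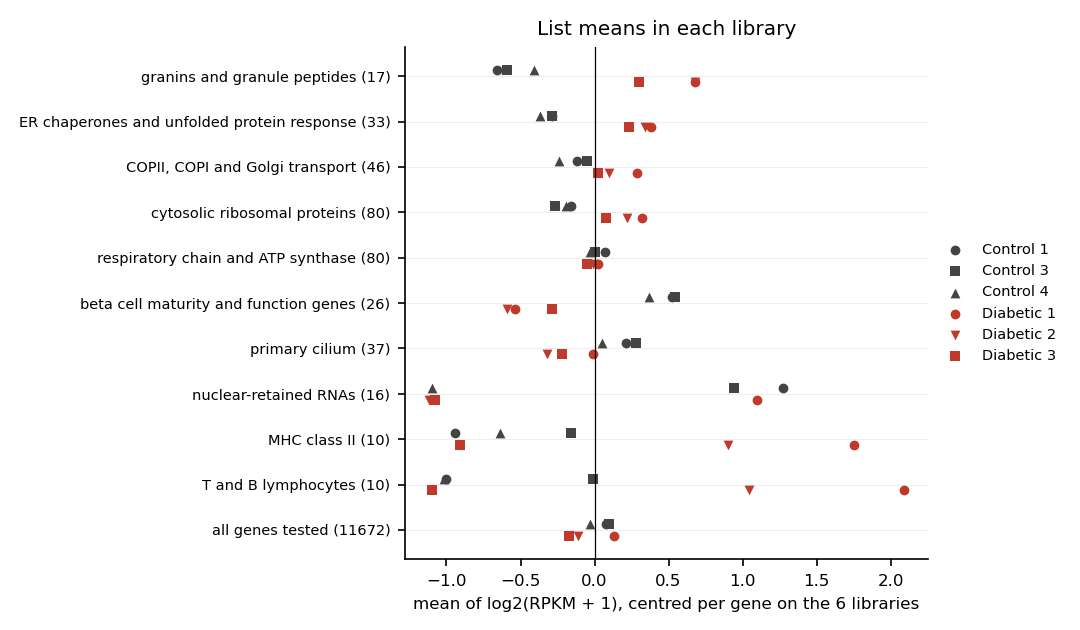
Each symbol is the mean of log2(RPKM + 1) over the genes of a list in 1 library, with each gene centred on the 6 libraries (horizontal axis), for Control (grey) and Diabetic (red). Granule, ER and ribosomal lists are above 0 in all 3 Diabetic libraries and below 0 in all 3 Control libraries, whereas nuclear-retained RNAs divide both groups and lymphocyte genes are highest in Diabetic 1 and 2.

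Genes of glucose uptake and of fuel metabolism changed in both directions, and their lists held few calls. Slc2a2, which encodes GLUT2, the glucose transporter of mouse β cells, was 108, 164 and 221 RPKM in Control and 30.9, 40.6 and 35.4 RPKM in Diabetic (log2 difference -2.12, SE 0.25, limma adjusted p = 0.0158). G6pc2, the islet glucose-6-phosphatase, was 2240 ± 303 RPKM in Control and 1102 ± 381 in Diabetic and was not called (adjusted p = 0.0544). The lactate dehydrogenase genes moved in opposite directions, with Ldha at 2.16, 2.41 and 2.33 against 6.72, 8.06 and 3.60 RPKM (log2 difference 1.05, SE 0.25, limma adjusted p = 0.0497) and Ldhb at 10.9, 12.6 and 9.98 against 4.34, 2.96 and 3.82 (-1.37, SE 0.15, adjusted p = 0.0158). Pkm, pyruvate kinase, fell by 0.54 (SE 0.10, limma adjusted p = 0.0292), Khk, which phosphorylates fructose, by 1.47 (SE 0.15, adjusted p = 0.0158), and Fbp2, a fructose bisphosphatase, rose from at most 1 read per Control library to 20 to 47 reads in Diabetic (adjusted p = 0.0226).

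In mitochondria, Hadh, an enzyme of fatty acid oxidation that also restrains glutamate dehydrogenase, went from 162, 185 and 193 RPKM to 51.2, 59.5 and 83.6 (log2 difference -1.48, SE 0.18, limma adjusted p = 0.0158). Pcx, pyruvate carboxylase, was 38.04 ± 1.005 RPKM in Control and 17.2 ± 6.56 in Diabetic (-1.17, SE 0.25, adjusted p = 0.0403), and Idh2, the mitochondrial NADP-dependent isocitrate dehydrogenase, 47.2 ± 5.26 and 25.3 ± 1.22 (-0.87, SE 0.11, adjusted p = 0.0160). Pdk3, a kinase that inhibits pyruvate dehydrogenase, rose by 0.59 (SE 0.11, limma adjusted p = 0.0338). Of 37 genes for the TCA cycle and fuel entry 1 was called higher and 3 lower (median -0.06), and of 32 genes for glycolysis and glycogen 2 were higher and 3 lower (median -0.14). The shares were 2.70% and 8.11%, and 6.25% and 9.38%, against 2.90% and 4.74% of all genes.

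Of 80 respiratory chain and ATP synthase genes 1 was called higher and 2 lower (1.25% and 2.5%, below the 2.90% and 4.74% of all genes). The list median was -0.01 (0.13 with median-of-ratios scaling). Ndufa1, an X-linked subunit of complex I, rose from 135 ± 10.8 to 336 ± 73.7 RPKM (log2 difference 1.28, SE 0.18, limma adjusted p = 0.0171), and Cox6a2 fell as given above. With median-of-ratios scaling Pkm and Pcx were not called (adjusted p = 0.115 and 0.0939). Without Control 3 or Diabetic 2, 0 of the 11 called metabolic genes named here remained called (adjusted p 0.0701 to 0.182), without Control 1 only Slc2a2 did, without Control 4 there were 4, without Diabetic 1 there were 8, and without Diabetic 3 all 11.

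Genes of mature β cells were lower, while the insulin genes were not called. Of 26 tested genes of β cell maturity and function 0 were called higher and 9 lower (34.6% lower, against 4.74% of all genes), with a median of -0.94. Ucn3, a peptide of mature β cells, was 336, 302 and 448 RPKM in Control and 86.0, 146 and 210 RPKM in Diabetic (log2 difference -1.36, SE 0.32, limma adjusted p = 0.0489). The granule zinc transporter Slc30a8 went from 521 ± 42.4 to 220 ± 68.7 RPKM (-1.29, SE 0.22, adjusted p = 0.0248). Ppp1r1a, an inhibitor of protein phosphatase 1 that is not in this list, went from 237 ± 9.45 to 73.1 ± 40.7 (-1.83, SE 0.35, adjusted p = 0.0321). The vitamin D receptor, Vdr, fell by 1.44 (SE 0.21, limma adjusted p = 0.0179).

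Of 19 β cell transcription factors 0 were called higher and 2 lower (10.5% lower, against 4.74% of all genes). Nkx6-1 was 217, 167 and 279 RPKM in Control and 98.2, 95.1 and 99.1 RPKM in Diabetic (log2 difference -1.14, SE 0.18, limma adjusted p = 0.0206), and Foxa2 fell by 0.64 (SE 0.15, adjusted p = 0.0480). Pdx1 was 112, 64.3 and 114 RPKM against 63.2, 66.8 and 79.1, where Control 3 lay among the Diabetic values (adjusted p = 0.265). Mafa was 245, 145 and 206 RPKM against 39.0, 81.8 and 179, and Diabetic 3 lay above Control 3 (adjusted p = 0.176). Of 19 genes that β cells normally keep silent, the so-called disallowed genes, 2 were called higher (10.5%, against 2.90% of all genes). They were Ldha and the ornithine aminotransferase Oat, at 2.86 ± 0.393 against 10.1 ± 3.27 RPKM (limma adjusted p = 0.0179). Dlk1, an imprinted ligand of the Notch family, rose from 0.226 ± 0.0699 to 1.496 ± 0.486 RPKM (1.01, SE 0.20, adjusted p = 0.0339), and of 10 dedifferentiation genes Aldh1a3 and Gast were called. With median-of-ratios scaling the maturity list held 5 lower genes and 1 higher, and Foxa2, Ucn3, Slc30a8 and Ppp1r1a were not called (adjusted p 0.0554 to 0.142). Without Control 3 or without Diabetic 2 the maturity list held 0 called genes, without Control 1 it held 2 and without Control 4 it held 3, with a median between -1.01 and -0.71 in the 6 fits. Of the 8 called genes named in this and the preceding paragraph, 0 remained called without Control 3 or Diabetic 2 (adjusted p 0.0529 to 0.185), 1 without Control 1 or 4, 6 without Diabetic 1 and 7 without Diabetic 3.

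Islet hormones differed in direction. Ins2 took 13.9, 13.2 and 14.2% of all reads in genes in Control and 7.35, 10.9 and 14.6% in Diabetic, and Ins1 7.46, 6.17 and 7.01% against 3.84, 6.29 and 8.91%. For both genes the Diabetic libraries lay on both sides of the Control values, and neither RPKM level was called (limma adjusted p = 0.406 for Ins2 and 0.720 for Ins1). Ins1 and Ins2 are close paralogs, and how reads shared between them were counted is not given in the sources used here. Iapp, the amylin gene, was 22744, 21689 and 20904 RPKM in Control and 44225, 42489 and 30570 RPKM in Diabetic, all above Control (log2 difference 0.83, SE 0.20), but was not called (limma adjusted p = 0.0502, and 0.0481 with median-of-ratios scaling). Gcg, the glucagon gene, was 14308 ± 2922 against 17945 ± 6940 RPKM (adjusted p = 0.623).

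Somatostatin and pancreatic polypeptide were lower. Sst was 2804, 4302 and 3689 RPKM in Control and 733, 770 and 904 RPKM in Diabetic (log2 difference -2.15, SE 0.18, limma adjusted p = 0.00865). Ppy was 4677, 3906 and 3510 RPKM against 1982, 761 and 1228 (-1.70, SE 0.33, adjusted p = 0.0331), and its neighbour Pyy, 5.36 kb away, had a log2 difference of -0.56 (adjusted p = 0.0973). Genes that mark the same cells did not all follow: of 10 δ cell genes Sst and Shisal2b fell (-2.15 and -1.55), and Pdyn and Casr, the calcium-sensing receptor, rose (3.31 and 0.63). Of 16 α cell genes 3 were called higher and 0 lower (18.8% higher, against 2.90% of all genes). The list median was 0.12 against -0.14 of all genes, and 9 of the 16 log2 differences were above 0. The 3 were Slc38a5, Cltrn (collectrin), which rose from 341 ± 34.0 to 1181 ± 489 RPKM (log2 difference 1.69, SE 0.32, limma adjusted p = 0.0309), and the transcription factor Etv1 (0.99, SE 0.18, adjusted p = 0.0304). Sst remained called in all fits but that without Diabetic 2 (adjusted p = 0.0701). Ppy, Cltrn, Etv1, Casr and Shisal2b were not called without any 1 of Control 1, 3 and 4 and Diabetic 2, with a highest adjusted p of 0.157, and Casr was not called without Diabetic 1 (0.0662).

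Channels and receptors of β cell excitability changed in both directions. Of 40 channel genes 2 were called higher and 5 lower (5.0% and 12.5%, against 2.90% and 4.74% of all genes), with a median of -0.24. Kcnj11, the pore of the ATP-sensitive potassium channel, was 55.3, 53.9 and 59.3 RPKM in Control and 31.0, 27.5 and 35.02 in Diabetic (log2 difference -0.84, SE 0.11, limma adjusted p = 0.0171). The calcium channel subunit Cacnb3 and the pacemaker channel Hcn4 fell by 0.68 and 1.35, and the sodium channel Scn3a and the potassium channel Kcnk1 rose by 1.26 and 0.79 (limma adjusted p 0.0171 to 0.0460). Of 35 islet G protein-coupled receptors and RGS proteins 4 were higher and 2 lower (11.4% and 5.71%). Ptger3, a prostaglandin E2 receptor that inhibits cAMP formation, went from 0.303, 0.358 and 0.482 RPKM to 7.37, 2.86 and 2.77 (log2 difference 1.85, SE 0.32, adjusted p = 0.0244). Gpr119, a receptor for lipid amides, rose by 0.82, Rgs17, which ends G protein signals, by 1.20, and the adenosine receptor Adora1 and the VIP receptor Vipr1 fell by 1.46 and 0.78 (adjusted p 0.0317 to 0.0424). Glp1r, the GLP-1 receptor, was 78.2 ± 12.6 against 54.1 ± 5.30 RPKM and was not called (adjusted p = 0.0706). None of these 10 called genes remained called without Control 1, 3 or 4 or Diabetic 2 (adjusted p 0.0547 to 0.170), Scn3a, Rgs17 and Vipr1 were also not called without Diabetic 1, and Adora1 and Vipr1 were not called with median-of-ratios scaling (0.0533 and 0.0781).

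Genes of the primary cilium, the sensory antenna of endocrine cells, were lower. Of 37 tested genes 0 were called higher and 6 lower (16.2% lower, against 4.74% of all genes). The median was -0.31, and 5 lay above the median of all genes. Bbs1, a subunit of the BBSome that carries receptors into the cilium, was 5.97, 6.01 and 5.69 RPKM in Control and 2.22, 1.9986 and 2.50 RPKM in Diabetic (log2 difference -1.09, SE 0.12, limma adjusted p = 0.0158). The intraflagellar transport genes Ift81, Ift43 and Ift74 fell by 0.86, 0.62 and 0.46, the ciliary phosphatase Inpp5e by 0.87, and the ciliary receptor Gpr161 by 0.63 (limma adjusted p 0.0206 to 0.0480). With median-of-ratios scaling 3 of the 6 were called (not Gpr161, Ift43 and Ift74, adjusted p 0.0611 to 0.119), and the list median was -0.18 against -0.02 of all genes.

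Of 20 circadian clock genes 3 were called lower and 0 higher, all outputs or modifiers of the clock. Dbp, a transcription factor driven by CLOCK and BMAL1, was 10.2, 9.77 and 17.4 RPKM in Control and 5.03, 2.52 and 3.18 RPKM in Diabetic (log2 difference -1.55, SE 0.27, limma adjusted p = 0.0268). Its relative Tef went from 11.2 ± 0.150 to 4.002 ± 1.51 RPKM (-1.34, SE 0.23, adjusted p = 0.0260), and Ciart, a clock repressor, fell by 1.02 (SE 0.22, adjusted p = 0.0393). The time of day at which islets were collected is not given in the sources used here. Of the 9 called cilium and clock genes, 0 remained called without Control 1, Control 3 or Diabetic 2 (adjusted p 0.0541 to 0.192), Bbs1 alone without Control 4, 6 without Diabetic 1 and 6 without Diabetic 3. By voom Ciart, Gpr161, Ift43 and Ift74 were not called (adjusted p 0.0550 to 0.139). With replicate number as a block in the model Dbp and Tef alone remained called.

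Of 35 adhesion and guidance genes 3 were called lower and 0 higher (8.57% lower against 4.74% of all genes), and the list median, -0.15, was near that of all genes, -0.14. At an unadjusted p under 0.05 the numbers were 9 and 3, and by voom 2 and 1. Gjd2, connexin 36, which couples β cells electrically, was 113, 93.6 and 119 RPKM in Control and 48.9, 50.8 and 56.9 in Diabetic (log2 difference -1.04, SE 0.12, limma adjusted p = 0.0158). Robo2, a guidance receptor that keeps islet architecture, fell by 1.22, the cadherin Cdh22 by 0.96, and Sfrp5, a secreted Wnt inhibitor outside this list, by 1.65 (adjusted p 0.0179 to 0.0359). None of the 4 named genes remained called without Control 1, Control 3 or Diabetic 2 (adjusted p 0.0529 to 0.157), Gjd2 alone did without Control 4, and Robo2 was also lost without Diabetic 1 (0.0571) and with median-of-ratios scaling (0.0649).

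Genes of oxidative defence were divided, with 3 of 33 higher and 3 lower (9.09% each, against 2.90% and 4.74% of all genes). Gpx3, a secreted glutathione peroxidase, went from 189, 231 and 233 RPKM to 961, 649 and 459 (log2 difference 1.60, SE 0.26, limma adjusted p = 0.0216), and Prdx4, the peroxiredoxin of the ER, rose by 0.87 (adjusted p = 0.0179). The NRF2 target Nqo1 and the ferritin light chain Ftl1 fell by 1.38 and 0.72 (adjusted p = 0.0369 and 0.0309), calls that median-of-ratios scaling ended (0.0560 and 0.137). Bag3, a cochaperone of HSP70 in selective autophagy, rose by 1.58, Wipi1, an autophagy protein, by 1.51, and the immediate early transcription factor Nr4a2 by 1.56 (adjusted p 0.0158 to 0.0201). In the lists of 25 apoptosis regulators, 46 proteasome genes and 29 ATF4 targets and tRNA synthetases 0 genes were called in limma, with an unadjusted p under 0.05 for 2 upward and 4 downward, 0 and 2, and 0 and 4 of them, and with 1, 0 and 0 called by voom. Without Control 1, Control 3 or Diabetic 2, 0 of the 7 genes named here remained called (adjusted p 0.0541 to 0.150), without Control 4 there were 2, and without Diabetic 1, Nqo1 and Ftl1 were lost.

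Few genes in the growth lists were called at the level of RNA. Of 22 genes for D cyclins, CDK4, CDK6 and their inhibitors 0 were called (limma; unadjusted p under 0.05 in 2 upward and 3 downward, and 0 by voom), as were 0 of 17 mitosis genes (0 and 0, and 0 by voom). Summed over the cyclin and CDK genes in the matrix, the level was 418 to 444 RPKM in Control and 291 to 402 in Diabetic, without overlap. With the nuclear-retained RNA factor in the model 2 of the 22 were called lower. Of 24 DNA replication genes 1 was called higher and 0 lower (4.17% higher, against 2.90% of all genes). This was Rrm2, a subunit of ribonucleotide reductase, at 2.33 ± 0.111 against 4.2003 ± 0.434 RPKM (log2 difference 0.64, SE 0.12, limma adjusted p = 0.0329). Of 14 genes of the prolactin, serotonin and growth hormone axis 0 were called higher and 2 lower (14.3% lower, against 4.74% of all genes). Stat5b, the transcription factor of prolactin and growth hormone receptors, fell by 0.57 and Ddc, which makes serotonin and dopamine, by 0.54 (limma adjusted p = 0.0405 and 0.0270). Both were not called with median-of-ratios scaling (0.103 and 0.104). These 3 genes were not called without any 1 of the libraries other than Diabetic 3 (adjusted p 0.0518 to 0.175), and without Diabetic 3 Stat5b was not called (0.0565).

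RNA of lymphocyte, MHC class II, macrophage and acinar genes differed mainly between the Diabetic libraries. Summed over all 14 T and B lymphocyte genes in the matrix, of which 10 were tested, the level was 6.61 to 28.8 RPKM in Control and 6.59 to 195 in Diabetic, where Diabetic 1 was highest and Diabetic 3 lowest. Jchain, which joins antibody subunits, was 70.7 RPKM in Diabetic 1, 15.3 in Diabetic 2, 0 in Diabetic 3 and 0.210 to 1.21 in Control. Over the 10 MHC class II genes the sums were 115 to 171 RPKM against 120 to 642, over 14 macrophage genes 69.7 to 121 against 99.0 to 266, and over 23 acinar genes 183 to 263 against 101 to 771. None of the genes in these 4 lists was called in limma (0, 1, 1 and 0 higher at an unadjusted p under 0.05, and 0, 0, 1 and 0 by voom). Without Diabetic 3, however, 7 of 10 lymphocyte, 9 of 10 MHC class II, 3 of 12 macrophage and 10 of 18 acinar genes were called higher, and with any other library left out 0 were. The sums of the endothelial list were 147 to 194 RPKM in Control and 193 to 268 in Diabetic, and those of the fibroblast list 62.1 to 99.2 and 114 to 145, with Cdh5 (VE-cadherin) and Thy1 as the called genes (0.76 and 1.03, limma adjusted p = 0.0461 and 0.0281). Both calls were lost without any 1 of the Control libraries or Diabetic 2 (adjusted p 0.0705 to 0.162), and that of Cdh5 also without Diabetic 1 or 3. The part of these cells in the differences above was not tested. Diabetic 2 also had high sums, 63.3 RPKM for lymphocyte, 459 for MHC class II, 266 for macrophage and 771 for acinar genes.

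**Figure D5:**
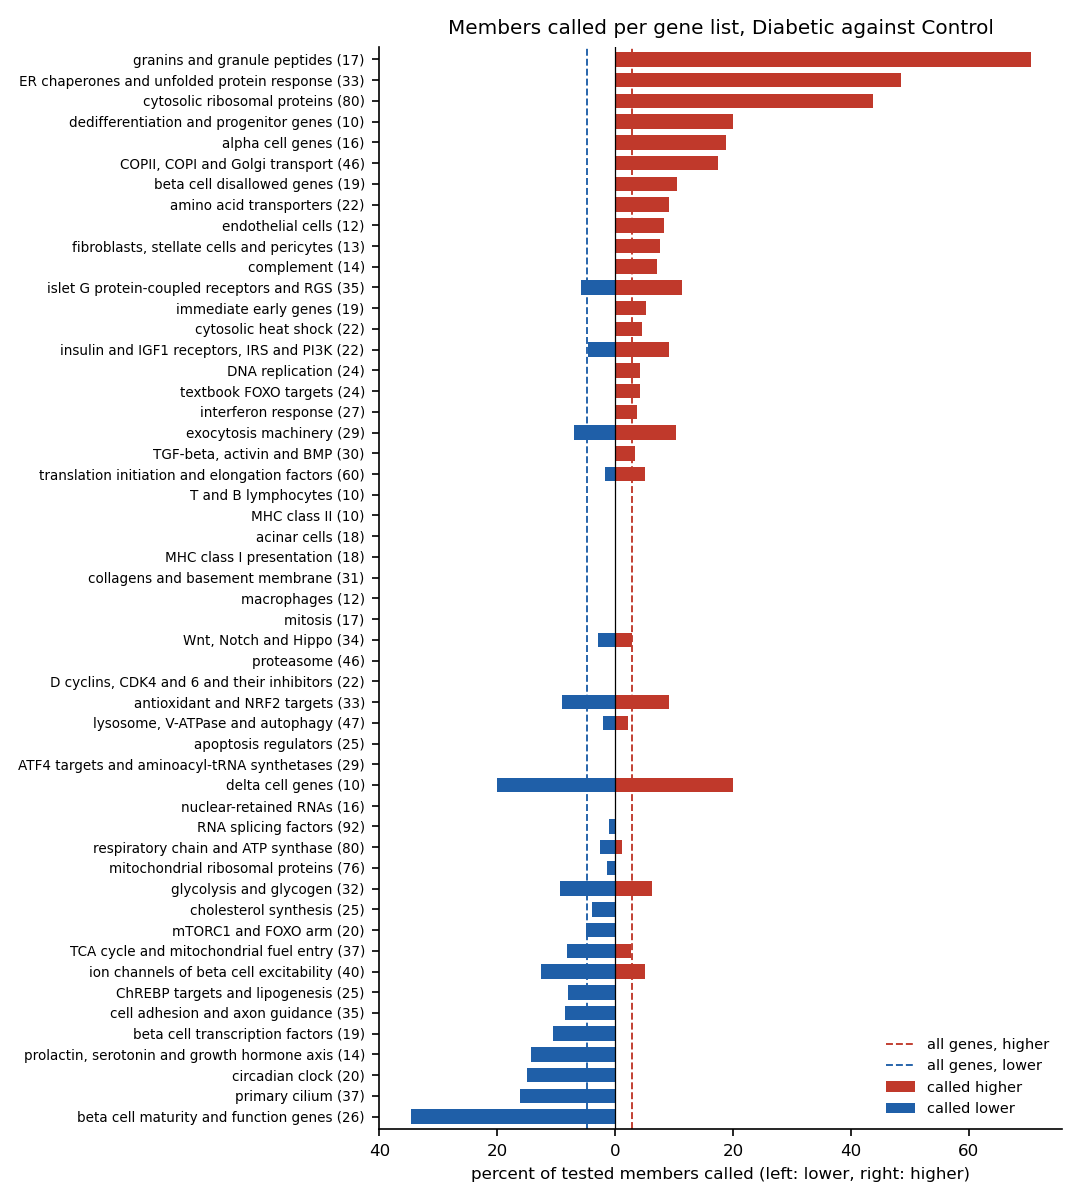
Bars give the percent of tested members called higher (right, red) and lower (left, blue) for each list of at least 10 tested genes, whose number stands in parentheses. Dashed lines mark the shares over all genes, 2.90% higher and 4.74% lower, which granule, ER and ribosomal lists exceed on the right and the β cell maturity list on the left.

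Most of the called genes belonged to none of the 59 lists, 226 of the 339 higher and 501 of the 553 lower. By position, 5.45% of 385 X-linked genes were called higher and 2.34% lower, against 2.90% and 4.74% of all genes, and 1.17% of 600 genes on chromosome 17 were called higher. By name, 10 of 310 zinc finger genes with the prefix Zfp were called lower (3.23%, below the 4.74% of all genes) and 0 higher. Of 58 Rab genes 6 were lower (10.3%) and 1 higher (1.72%), and of 17 peroxisome genes with the prefix Pex 3 were lower (17.6%) and 0 higher. These groups were picked from many prefixes after the calls were known, as a description.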

How the data were processed

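Gene-level RPKM of 8 islet libraries were deposited by the authors, who aligned paired polyA reads with STAR to mm10, counted with HTSeq and named edgeR for their own tests. Their versions, the strand setting and the handling of reads with several matches were not given in the sources used here. The 6 Control and Diabetic libraries were used. Reads were recovered as the smallest whole numbers that reproduce a gene's values in all 8 libraries within 0.001 reads, found for 100.0% of genes above 0. A gene above 0 in a single library always fits, with 1 read. A factor shared by all libraries is lost, so the read numbers given here are the smallest that fit. Genes that reached 1 RPKM in 2 or more of these libraries were fitted on log2(RPKM + 1) with limma 3.58.1 (R 4.3.3), 1 mean per group, empirical Bayes with a trend, 2-sided, with Benjamini-Hochberg adjustment over the 11672 genes tested. The unit called for limma, so no count test was a main result, and voom on the recovered reads was an alternative. Every adjusted p in the text is from limma. A fold change on this scale understates that of low genes.

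The genes named were the 20 largest called differences in each direction, those largest among genes called with every library left out, up to 5 called and 3 uncalled members of each of 59 lists, called genes near Irs2, and hormones and nuclear RNAs. The text gives a selection of them, together with several genes chosen after their values were seen. The members and lists were chosen with earlier results of these data known, and the promoter motifs after the calls were known. Nnt was not among the genes tested. Some results are not reported here. Promoters and their coordinates are from RefSeq (GRCm38.p6). The fit was tested on simulated data. Alternatives were other pseudocounts, filters, scalings, weights, covariates, thresholds, a replicate block, all 8 libraries, and leaving out each library. Python 3.11.15 and matplotlib 3.10.9 made the plots.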

Additional observations from a re-analysis of the deposited data

How the results depend on the processing

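The counts of genes higher in Diabetic than in Control (339) and of genes lower in Diabetic than in Control (553) moved by more than 1.5 times in at least 1 direction under these settings: 179 and 258 with no filter, 570 and 240 with median-of-ratios scaling, 454 and 272 with quantile normalization, 203 and 325 with all 8 libraries in the fit, 1542 and 4656 with array weights, 575 and 900 with the nuclear-retained RNA level as a covariate, 576 and 886 with it as a factor, and 553 and 232 by voom on recovered reads. They were 663 and 1262 at an adjusted p under 0.1, 8 and 7 under 0.01, and 134 and 138 with a log2 difference of at least 1. With 1 library left out they ranged from 3 to 833 and from 0 to 581 (limma; without Diabetic 2, 696 and 1283 genes had an unadjusted p under 0.05). The cause was not tested. With a replicate block the counts were 146 and 175, and 82 of the 131 called genes named here remained called. Only numbers 1 and 3 occur in both groups, so the difference in that fit rests on the libraries with these numbers. Whether the numbers mark pairs is not stated. The deviations of same-numbered libraries had correlations of 0.354 (number 1) and -0.270 (number 3). Those of differently numbered libraries had correlations of -0.597 to 0.526, so these values cannot decide whether the numbers mark pairs. With median-of-ratios scaling 106 and by voom 97 of the 131 remained called. The log2 difference of Ins1, not called, ranged from -0.46 to 0.14, and that of Malat1, not called, from -1.18 to 0.13, with 1 library left out. Depth limits genes of few reads, of which Mir5119 rested on 8 in all.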

Other observations

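Among genes not tested, the 5 with the highest level in a single library all had it in Diabetic 1. Of these, Mir7688 rested on 3 reads. Glycam1, a mucin of lymph node vessels, had 421 reads there and at most 3 in any other of the 6 libraries, and Marco, a macrophage scavenger receptor, 186 and at most 11. Tnfrsf13b, a B cell receptor of the TNF family, had 177 reads against at most 26, and Lrmp, a lymphoid membrane protein, 238 against at most 36. Diabetic 1 was also the library with the highest lymphocyte and MHC class II sums.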
